A study of Mus musculus with 2 samples.

Results

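The genes described here were 6 matrix metalloproteinases (Mmp2, Mmp3, Mmp11, Mmp14, Mmp19 and Mmp23) and 3 tissue inhibitors of metalloproteinases (Timp1, Timp2 and Timp3), 9 of the 31054 genes in the count tables. They were listed by symbol, with earlier results of these data known. Gonadal white adipose tissue (gWAT) came from 18-month-old male mice of the genotype p16-CreERT2/R26-LSL-tdTomato that had received tamoxifen. In these mice a tamoxifen-dependent Cre recombinase is made from the p16 locus and switches on the red reporter tdTomato, so that the label marks cells in which p16 was active at the time of tamoxifen, and descendants of such cells. Cells negative for the endothelial marker CD31 and the leukocyte marker CD45 were separated by the red fluorescence, giving 1 droplet library of Tom+ and 1 of Tom- cells. Both libraries carried the same alleles and the same treatment, and the comparison asks how cells marked through the p16 locus differ from unmarked cells of the same aged fat. The number of mice pooled in each library was not given in the sources used here. A difference between the sorted groups and one between the preparations cannot be told apart, and no test was made.

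Matrix metalloproteinases are zinc-dependent enzymes that cut collagens and other components of the extracellular matrix, and most are made as inactive proenzymes. The inhibitors block their active sites, so matrix turnover depends on the balance of both families as well as on activation. In adipose tissue, matrix remodelling accompanies the growth of fat cells and fibrosis, and metalloproteinases are commonly counted among the factors that senescent cells secrete. RNA levels report neither proenzyme activation nor inhibitor binding.

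The 6 proteases share 1 catalytic feature, the zinc site, which is shown here. Read from the GENCODE coding sequences on GRCm38, the zinc site was found in each as the pattern His-Glu-x-x-His-x-x-Gly-x-x-His. In the lines that follow, written 5′ to 3′ over 33 bases, capitals mark the codons of the 3 zinc-binding histidines and of the catalytic glutamate.
Mmp2: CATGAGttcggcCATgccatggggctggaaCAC
Mmp3: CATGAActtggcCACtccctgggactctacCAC
Mmp11: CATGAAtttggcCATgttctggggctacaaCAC
Mmp14: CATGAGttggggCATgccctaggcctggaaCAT
Mmp19: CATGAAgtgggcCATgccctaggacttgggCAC
Mmp23: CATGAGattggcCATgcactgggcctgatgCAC
The site lay in coding exon sequence in every case, in exon 8 of 13 for Mmp2 (chr8:92839279-92839311, plus strand) and in exon 5 for the other 5 genes. These were chr9:7449775-7449807 (plus strand) for Mmp3, chr10:75926931-75926963 (minus) for Mmp11, chr14:54437627-54437659 (plus) for Mmp14, chr10:128795673-128795705 (plus) for Mmp19 and chr4:155651528-155651560 (minus) for Mmp23. Of the 33 bases, Mmp14 shared 27 with Mmp2, Mmp11 shared 26, Mmp23 25, Mmp19 24 and Mmp3 23. Outside the site the proteins differ in ways that matter for where they act, since Mmp14 is anchored in the plasma membrane, Mmp23 lacks the hemopexin domain of the other members and is released from the membrane by cleavage, and the other 4 are secreted. The inhibitor genes lie on other chromosomes or far from the proteases, Timp1 (ENSMUSG00000001131) at chrX:20870166-20874735, Timp2 (ENSMUSG00000017466) at chr11:118301069-118355740 and Timp3 (ENSMUSG00000020044) at chr10:86300372-86349506.

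Quality control kept barcodes above 1000 and below 7000 genes that had under 8% mitochondrial UMIs (unique molecular identifiers, each counted as 1 RNA molecule), which left 3524 of 5566 Tom+ barcodes and 6717 of 11838 Tom- barcodes. Cells with at least 10 UMIs of Msln, Upk3b, Krt19, Lrrn4 and Upk1b together were taken as mesothelial (250 Tom+, 1887 Tom-), and those with under 5 as stromal (3263 Tom+, 4800 Tom-), while 11 and 30 cells lay between. The medians were 14235 and 11270 UMIs per stromal cell and 18601.5 and 14753 per mesothelial cell. The mesothelial markers taken outside the rule were Wt1, Bnc1, Gpm6a, Rspo1 and Nkain4. They summed to 3336 and 3330 CPM (UMIs per 1000000 UMIs of the class) in mesothelial cells against 242 and 377 CPM in stromal cells. Of these stromal sums, Wt1 made up 170 and 263 CPM. The stromal progenitor marker Pdgfra was found in 92.3% and 87.2% of stromal cells. The stromal class was not pure, since 7 immune markers summed to 47242 CPM in Tom+ against 11633 CPM in Tom- stromal cells. Clusters led by immune genes held 196 Tom+ and 98 Tom- of the stromal cells, and ratios between the libraries are given without them as well. At least 3 UMIs of the same 7 immune markers were present in 94.9% of Tom+ stromal and 99.2% of Tom+ mesothelial cells, against 37.3% and 49.0% in Tom-. Whether free immune RNA differed in its effect on the values reported here was not tested. The labels were checked on the reporter and on Cdkn2a, the gene of p16 and p19Arf, which these tags do not tell apart. A tdTomato UMI was present in 28.6% of Tom+ and 13.1% of Tom- stromal cells (20.2% and 8.72% after thinning to 1 depth), at 211 and 13.1 CPM. Cdkn2a was at 4.66 CPM in the library labelled Tom+ and 5.79 CPM in that labelled Tom- in stromal cells, with log2 ratio -0.31 (-0.56 to -0.07), and at 12.4 and 8.47 CPM in mesothelial cells, with log2 ratio 0.55 (0.14 to 0.94). After thinning, stromal cells were nearly alike, with a Cdkn2a UMI in 2.17% (1.68 to 2.76) of Tom+ and 2.50% (2.05 to 3.03) of Tom- cells. The means were 0.0381 and 0.0385 UMIs per thinned cell. Stromal cells of the Tom+ library thus did not hold more Cdkn2a RNA at the time of capture, and the names Tom+ and Tom- stand here for the sort only. By quantitative PCR with p16 primers, a different measure, the paper reported more p16 RNA in sorted Tom+ than in Tom- progenitor cells of aged mice. The libraries listed 2224 barcode sequences in common, of which 504 Tom+ and 282 Tom- stromal or mesothelial cells carried one, and 9 passed quality control in both.

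In stromal cells, Mmp3, Mmp11 and Mmp14 were higher in the Tom+ library by at least 1.5-fold and Timp1 was lower, while Mmp2 and Mmp23 stopped just short of that limit in opposite directions. Timp2, Timp3 and Mmp19 stayed within 1.5-fold. Thus 3 of 9 genes were past the limit upward, beside 3.86% of the 9778 genes whose mean reached 5 CPM, and 1 of 9 downward, beside 3.25%. The 9 genes were chosen with earlier results of these data known, so such counts, here and below, are descriptions and show no enrichment. The median log2 ratio was 0.32 over the 9 genes and 0.07 over all 9778. Intervals here and throughout are 95% intervals of counting error only, and say nothing of the variation between cells or between mice.

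Mmp2, the gelatinase that cuts denatured collagen and basement membrane, was at 825 CPM (817 to 833) in Tom+ against 553 CPM (547 to 559) in Tom- stromal cells. Its log2 ratio of 0.58 (0.56 to 0.60), a 1.49-fold difference, stood at percentile 96.0 of all genes. Mmp14, the membrane-type protease that activates pro-Mmp2 at the cell surface, was at 419 CPM (414 to 425) against 256 CPM (252 to 260), with log2 ratio 0.71 (0.68 to 0.74) at percentile 97.9. The protease and its activator were thus both higher in the Tom+ library, each beyond its counting error. Without the clusters led by immune genes, the log2 ratios were 0.68 for Mmp2 and 0.81 for Mmp14, both past the limit. With each stromal cluster weighted equally they were 0.30 and 0.49, both short of it. That setting, here and below, took only the 6 clusters with at least 30 cells of each library. A cluster led by immunoglobulin genes was among them, and small clusters weighed as much as large ones.

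Mmp3 (stromelysin-1), which cuts many matrix proteins and activates other metalloproteinases, was at 110 CPM (107 to 112) in Tom+ against 72.5 CPM (70.3 to 74.7) in Tom- stromal cells, with log2 ratio 0.60 (0.54 to 0.65) at percentile 96.4. Mmp11 (stromelysin-3), which furin-type convertases activate inside the cell, was at 165 CPM (161 to 168) against 99.0 CPM (96.5 to 102), with log2 ratio 0.73 (0.68 to 0.78) at percentile 98.0. Both stromelysins were therefore higher in Tom+, but the Mmp3 ratio of 1.51-fold sat on the limit and fell short of it under 5 of the other settings tried. With median-of-ratios scaling, which centres on the median gene, Mmp3 was at 0.52 and Mmp11 at 0.66. Without the clusters led by immune genes they were at 0.66 and 0.83, and with each cluster weighted equally at 0.50 and 0.34, both then short of the limit.

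Mmp19, which cuts basement membrane proteins, was at 40.1 CPM (38.4 to 41.9) in Tom+ against 39.6 CPM (38.0 to 41.3) in Tom- stromal cells, with a log2 ratio of 0.02 (-0.07 to 0.11) whose sign turned under 3 other settings. Mmp23, which furin-type convertases release from its membrane anchor, went the other way from the other proteases, with 225 CPM (221 to 229) in Tom+ against 336 CPM (331 to 341) in Tom-. Its log2 ratio was -0.58 (-0.61 to -0.54), or 1.49-fold lower in Tom+, at percentile 3.32. With median-of-ratios scaling it was -0.65 and past the limit. It was -0.49 without the clusters led by immune genes.

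Among the inhibitors, Timp1, which blocks most secreted metalloproteinases but acts poorly on Mmp14, showed the largest difference of the 9 genes. It was at 70.7 CPM (68.5 to 73.1) in Tom+ against 138 CPM (135 to 141) in Tom- stromal cells, with log2 ratio -0.96 (-1.02 to -0.91) at percentile 1.07. A single Tom- cell held 688 of the 7987 Timp1 UMIs, and without the top cell of each library the log2 ratio was -0.90 (-0.95 to -0.84). Timp2, which binds Mmp14 and thereby helps it to activate pro-Mmp2, was at 2374 CPM (2360 to 2387) against 2131 CPM (2119 to 2143), with log2 ratio 0.16 (0.14 to 0.17). Timp3, the inhibitor that stays bound to the matrix and also blocks Adam17, was at 560 CPM (554 to 567) against 450 CPM (444 to 455), with log2 ratio 0.32 (0.29 to 0.34). Without the clusters led by immune genes the log2 ratios were -0.90 for Timp1, 0.25 for Timp2 and 0.42 for Timp3. Timp2 and Timp3 thus stayed within 1.5-fold, and only Timp1 was lower in Tom+ among the inhibitors.

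**Figure D1:**
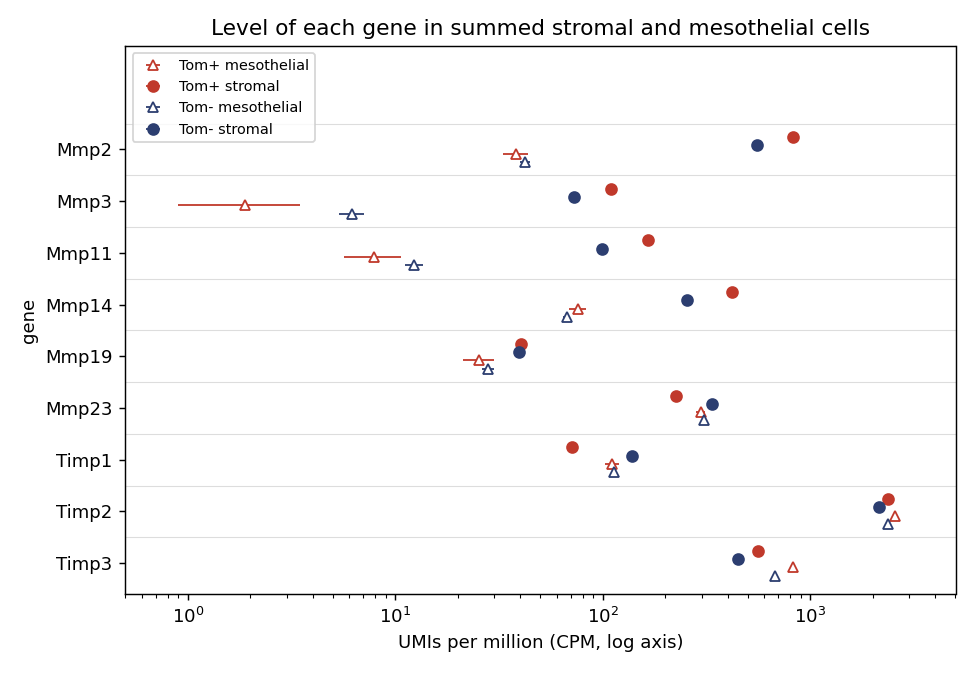
CPM of the 9 genes on a log axis in summed stromal cells (filled circles) and mesothelial cells (open triangles) of the Tom+ (red) and Tom- (blue) libraries, with 95% Poisson intervals of counting error. Mmp2, Mmp3, Mmp11 and Mmp14 lie far to the right in stromal cells, and Timp2 lies above 2000 CPM in all 4 sums.

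The genes were spread over cells in very different ways. To compare shares of cells, each cell was thinned to 7563 UMIs, which left out 271 Tom+ and 647 Tom- stromal cells. Timp2 was then found in 98.6% and 99.5% of stromal cells, Mmp2 in 93.8% (92.9 to 94.7) and 90.4% (89.5 to 91.3), and Mmp14 in 89.7% (88.6 to 90.8) and 79.4% (78.2 to 80.6). Mmp23 was found in 76.2% (74.6 to 77.7) of Tom+ and 86.9% (85.8 to 87.9) of Tom- cells, Timp3 in 78.2% and 66.0%, and Mmp11 in 47.0% (45.2 to 48.8) and 35.3% (33.8 to 36.8). These orders between the libraries matched those of the CPM, with the exception of Timp2. Timp1 was found in 22.6% (21.1 to 24.2) of Tom+ and 31.3% (29.9 to 32.7) of Tom- cells, and Mmp19 in 23.5% and 21.4%. Mmp3 was found in only 13.1% (11.9 to 14.3) and 9.29% (8.43 to 10.2), beside 1.62% and 1.85% in thinned mesothelial cells. Without thinning the shares were 94.9% and 91.5% for Mmp2, 93.3% and 85.8% for Mmp14, 87.4% and 91.1% for Mmp23, 58.1% and 42.0% for Mmp11, 34.8% and 40% for Timp1 and 16.4% and 10.9% for Mmp3.

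Mmp3 RNA sat in a small minority of cells. The 10% of stromal cells with the most Mmp3 held 95.7% of its UMIs in Tom+ and 99.0% in Tom-, and 47 Tom+ and 48 Tom- cells held at least 50% of them. Timp1 was the next most uneven, with 72.7% and 74.7% of its UMIs in the top 10%, whereas Mmp14 had 25.7% and 30.3% there. For Mmp3 and Timp1, a level averaged over all stromal cells therefore describes few of them.

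The upstream sequence of Mmp3, the most uneven of the 9 genes, is shown because the family is known for control by the transcription factor AP-1. RefSeq windows were at hand for 7 of the 9 genes. The 250 bases before the RefSeq start of Mmp3 (GRCm38.p6, chr9:7445572-7445821, plus strand) hold 1 match to the AP-1 motif TGANTCA, which reads the same on both strands. The match, in capitals, begins 46 bases before the start.
Mmp3: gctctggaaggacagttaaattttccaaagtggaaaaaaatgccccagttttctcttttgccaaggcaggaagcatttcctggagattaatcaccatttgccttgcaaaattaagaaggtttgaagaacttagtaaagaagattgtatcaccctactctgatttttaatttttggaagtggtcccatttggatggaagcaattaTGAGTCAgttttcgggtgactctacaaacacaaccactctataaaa
Of the windows of the same length in the RefSeq table, 6.75% of 32851 hold this motif. No match stood in the windows of Mmp11, Mmp14, Mmp23, Timp1, Timp2 and Timp3.

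In mesothelial cells, the ratios between the libraries lay closer to 0 than in stromal cells for Mmp2, Mmp14, Mmp23, Timp1, Timp2 and Timp3. Mmp14 was at 75.5 CPM (68.3 to 83.3) in Tom+ against 66.8 CPM (64.0 to 69.7) in Tom-, with log2 ratio 0.18 (0.02 to 0.33). Mmp23 was at 296 and 307 CPM, with log2 ratio -0.05 (-0.13 to 0.03). Timp1 was at 111 CPM (102 to 120) against 113 CPM (110 to 117), with log2 ratio -0.03 (-0.16 to 0.09) whose sign turned under 3 other settings. Without the barcodes listed in both libraries, the mesothelial Timp1 value was -0.35. The near equality of Timp1 between the mesothelial sums thus depended on those barcodes. It stood beside a nearly 2-fold difference between the stromal sums. Timp3 kept a like ratio in both classes, with 823 and 677 CPM in mesothelial cells and a log2 ratio of 0.28 (0.23 to 0.33), though this was 0.02 without the shared barcodes. Timp2 was at 2562 and 2375 CPM, with log2 ratio 0.11 (0.08 to 0.14), and Mmp19 at 25.2 and 27.9 CPM, with log2 ratio -0.15 (-0.42 to 0.12).

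The remaining 3 proteases were scarce in mesothelial cells. Mmp2 was at 38.1 CPM in Tom+ against 42.0 CPM in Tom-, with log2 ratio -0.14 (-0.36 to 0.07). Mmp11, with 42 and 397 UMIs, was at 7.89 CPM (5.69 to 10.7) against 12.3 CPM (11.1 to 13.5), with log2 ratio -0.64 (-1.13 to -0.18). Mmp3, with 10 and 199 UMIs, was at 1.88 CPM (0.90 to 3.45) against 6.15 CPM (5.33 to 7.07). The Mmp11 value was not stable. It ran from -0.95 without the shared barcodes to 0.03 with no quality filter, and was within 1.5-fold under 3 of the other settings. Stromal genes used below as a benchmark ran from -1.03 for Lum to 0.42 for Pi16 in the same comparison. Of the 8 genes whose mean reached 5 CPM, 0 were at least 1.5-fold higher, beside 1.86% of 10013 genes, and 1 (Mmp11) was lower, beside 1.16%.

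**Figure D2:**
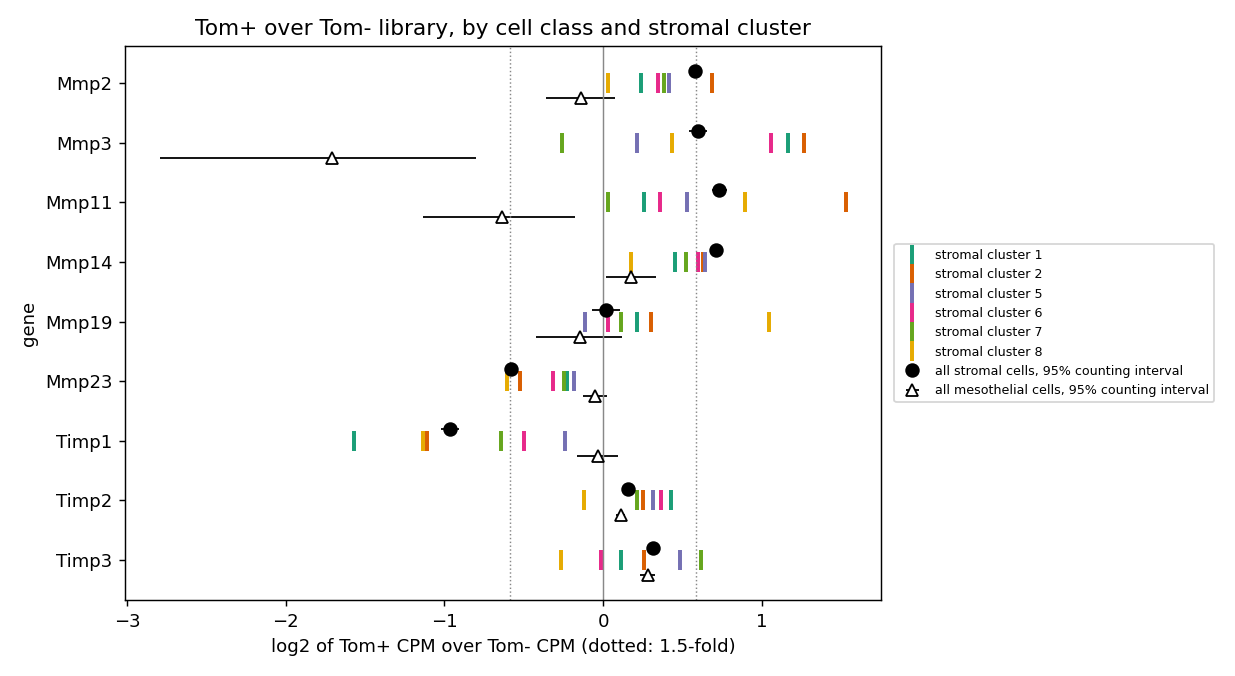
Log2 of Tom+ over Tom- CPM for each gene in all stromal cells (filled circles) and all mesothelial cells (open triangles), with 95% intervals of counting error, and in the 6 stromal clusters with at least 30 cells of each library (coloured bars). Dotted lines mark 1.5-fold, and Mmp23 and Timp1 lie below 0 in all 6 clusters, of which cluster 2 is led by immunoglobulin genes.

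Mesothelial and stromal cells of 1 library share a preparation, and the comparison of the classes within each library asks which of these genes belong to which cells. Mmp2, Mmp3, Mmp11 and Mmp14 were mainly stromal, whereas the 3 inhibitors, Mmp19 and Mmp23 were within 2-fold between the classes. In the Tom+ library, 4 of 9 genes were at least 2-fold lower in mesothelial cells, beside 10.1% of 10231 genes, and 0 were higher, beside 13.1%. In the Tom- library, 4 of 9 were lower, beside 9.22% of 10019 genes, and 0 were higher, beside 11.9%. The 4 genes were Mmp2, Mmp3, Mmp11 and Mmp14 in both. Because the list was made with earlier results of these data known, these counts too are descriptions. The median of all genes was 0.11 and 0.14 on the log2 scale, so ratios near these values are no shift relative to the other genes.

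The log2 ratio of mesothelial over stromal CPM was -4.44 (-4.64 to -4.24) in Tom+ and -3.72 (-3.80 to -3.64) in Tom- for Mmp2. It was -5.87 (-6.93 to -4.99) and -3.56 (-3.77 to -3.35) for Mmp3, and -4.38 (-4.86 to -3.95) and -3.01 (-3.16 to -2.87) for Mmp11. Stromal genes chosen as a benchmark of RNA carried over into mesothelial droplets ran from -4.69 for Lum to -0.89 for Dcn in Tom+, and from -3.84 for Pi16 to -0.60 for Col3a1 in Tom-. Lum, a matrix proteoglycan of fibroblasts, was at -4.69 and -3.50. Mmp2 lay near Lum in both libraries, Mmp3 lay below every benchmark gene in Tom+ and near Lum in Tom-, and Mmp11 lay between Lum and Clec3b (-3.22) in Tom+ and beside Clec3b (-2.99) in Tom-. The mesothelial UMIs were unevenly spread, since the 10% of Tom- cells with the most Mmp2 held 82.4% of its UMIs, against 74.7% for Lum, and 10 Tom- cells held 61.8% of the Mmp3 UMIs. The part of carried-over RNA in these values was not tested. Without mesothelial cells of 3 or more Pdgfra UMIs, a guard against mixed droplets, the ratios were -5.05 and -4.44 for Mmp2, -5.97 and -4.19 for Mmp3 and -4.61 and -3.37 for Mmp11. With no quality filter, Mmp11 was at -3.63 in Tom+.

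Mmp14 was intermediate, with log2 ratios of -2.47 (-2.62 to -2.33) in Tom+ and -1.94 (-2.00 to -1.87) in Tom-. After thinning, an Mmp14 UMI was present in 40.9% (34.7 to 47.3) of Tom+ and 36.6% (34.4 to 38.9) of Tom- mesothelial cells. A UMI of Pdgfra, a receptor of stromal cells, was present in 21.5% (16.5 to 27.1) and 25.8% (23.8 to 27.9) of the same cells, at stromal levels of 344 and 282 CPM. Mmp14 was thus found more often than Pdgfra in mesothelial cells of both libraries, but not more often than every benchmark gene. Without thinning, Mmp14 was found in 68.0% and 57.8% of mesothelial cells and Mfap5 in 78.4% and 73.4%. Dcn, Col1a1 and Col3a1 were also found more often than Mmp14, and Lum and Pi16 less often. Clec3b was found less often in Tom+ (64.0%) and more often in Tom- (61.9%). The part of carry-over in its values was not tested. With the same cells of 3 or more Pdgfra UMIs left out, the ratios were -2.67 and -2.14.

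Mmp19 was lower in mesothelial cells by less than 2-fold, with log2 ratios of -0.67 (-0.94 to -0.42) in Tom+ and -0.51 (-0.62 to -0.39) in Tom-. Timp3 was higher by less than 2-fold, with 0.56 (0.51 to 0.60) and 0.59 (0.57 to 0.62), although the Tom+ value was 0.01 without the shared barcodes. Timp2 was at 0.11 (0.08 to 0.14) and 0.16 (0.14 to 0.17), close to the median gene, and its sign in Tom+ turned under 4 other settings, with -0.002 under median-of-ratios scaling. Timp2 was found in every thinned mesothelial cell, 247 of 247 and 1788 of 1788. Mmp23 and Timp1 took opposite signs in the libraries, with 0.40 (0.32 to 0.47) in Tom+ and -0.13 (-0.17 to -0.10) in Tom- for Mmp23, and 0.65 (0.52 to 0.77) and -0.28 (-0.34 to -0.23) for Timp1. With no quality filter the Timp1 values were 0.0042 and -0.88. For both genes the mesothelial levels were nearly alike and the stromal level was lower in Tom+. For Timp1, however, the mesothelial ratio of Tom+ over Tom- was -0.35 without the shared barcodes.

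**Figure D3:**
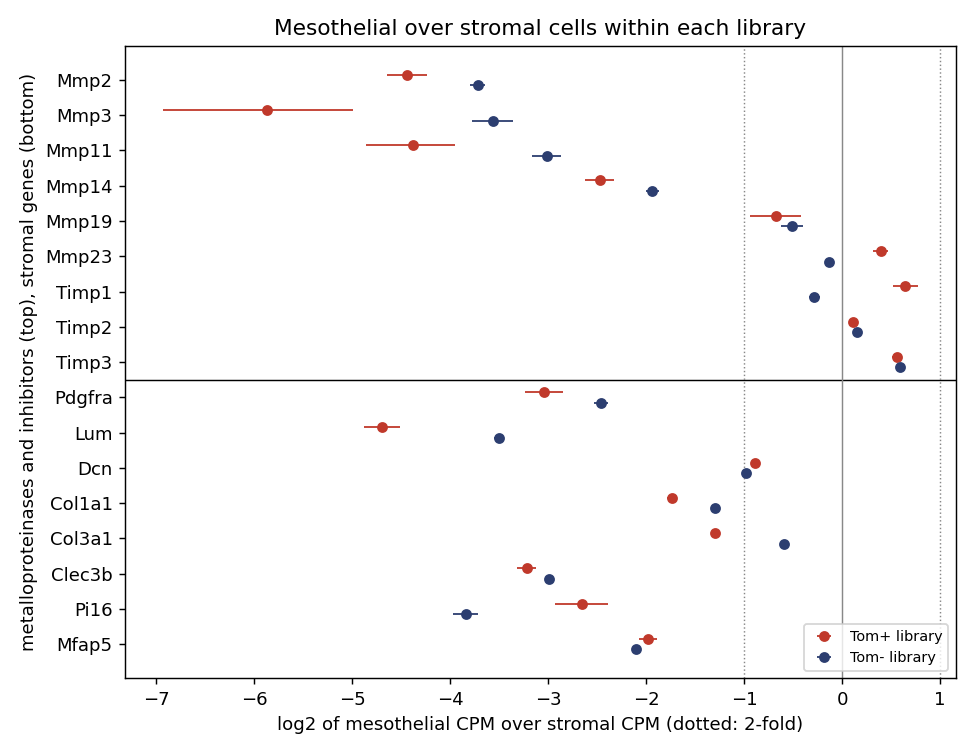
Log2 of mesothelial over stromal CPM within the Tom+ (red) and Tom- (blue) libraries for the 9 genes (top) and 8 stromal benchmark genes (bottom), with 95% intervals of counting error and dotted lines at 2-fold. In Tom-, Mmp2, Mmp3 and Mmp11 lie beside Lum, Pi16 and Clec3b. In Tom+, Mmp2 and Mmp11 lie near Lum, and Mmp3 lies below every benchmark gene. The inhibitors lie between the 2-fold lines in both libraries, Timp2 nearest to 0, Timp3 above 0, and Timp1 above 0 in Tom+ and below 0 in Tom-.

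The sums give the balance of the families at the RNA level, on a scale of UMIs that is not corrected for how well each RNA is captured. Stromal cells held 1.68 (1.67 to 1.70) inhibitor UMIs for each UMI of the 6 proteases in Tom+ and 2.01 (1.99 to 2.02) in Tom-. Mesothelial cells held 7.87 (7.54 to 8.21) and 6.85 (6.74 to 6.97). Timp2 made up 79.0% and 78.4% of the inhibitor UMIs in stromal cells and 73.3% and 75.0% in mesothelial cells. The protease sums were 1783 and 1356 CPM in Tom+ and Tom- stromal cells and 444 and 462 CPM in mesothelial cells. The inhibitor sums were 3004, 2718, 3496 and 3166 CPM in the same order. The protease sum thus differed more than the inhibitor sum between the classes, and between the libraries in stromal cells. Between the libraries in mesothelial cells the inhibitor sum differed more.

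Mmp14, Mmp2 and Timp2 proteins form the complex that activates pro-Mmp2. After thinning, UMIs of all 3 were present in 86.6% (85.3 to 87.8) of Tom+ and 73.3% (72.0 to 74.7) of Tom- stromal cells. The products of the single shares were 83.0% and 71.5%, so the genes met in 1 cell somewhat more often than independent shares would give. Cells of the clusters led by immune genes were included, and their part in this excess was not tested. Most stromal cells therefore carried RNA of the entire complex. In mesothelial cells the shares were 8.50% (5.34 to 12.7) and 6.77% (5.65 to 8.03). Without thinning they were 91.3% and 81.0% in stromal and 24% and 15.8% in mesothelial cells.

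Stromal cells of both libraries were clustered together without any Mmp or Timp gene, which gave 8 clusters, numbered from the highest to the lowest share of Tom+ cells. Cluster 1, led by Cpe, Peg3, Sox4 and Eln, was 78.9% Tom+ (1668 and 445 cells). Clusters 2, 3 and 4 were led by immunoglobulin, mast cell and T cell genes. Cluster 5, led by genes that include the progenitor marker Pi16, was 39.5% Tom+, cluster 6, led by Vtn and Igf1, 25.2%, cluster 7, with Cpxm2, Adamts9 and Il6, 15.5%, and cluster 8, with Ccl21a, Cfd and Calca, 13.8%. Genes that differ between the libraries took part in the clustering, so these shares are a description.

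Mmp2, Mmp11 and Mmp14 peaked in a different cluster from Timp2 and Timp3, whereas Mmp23 and Timp1 were both highest in clusters 7 and 8. In both libraries together, Mmp2 (1086 CPM), Mmp11 (233 CPM) and Mmp14 (503 CPM) were highest in cluster 1, the cluster with most Tom+ cells, ahead of cluster 6 with 674, 130 and 310 CPM. Timp2 (3714 CPM) and Timp3 (791 CPM) were highest in the Pi16 cluster 5, where Mmp2 was at 358 CPM, Mmp11 at 41.5 CPM and Mmp3 at 17.0 CPM. The Pi16 cluster thus paired high levels of these inhibitors with low levels of these secreted proteases. Mmp23 was highest in cluster 7 (390 CPM), Timp1 in clusters 8 (318 CPM) and 7 (207 CPM), and Mmp3 in clusters 7 (152 CPM) and 1 (143 CPM). Mmp19 was highest in cluster 6 (54.9 CPM). Cluster 7, with the inflammatory cytokine Il6 among its leading genes, therefore stood high in Mmp3, Mmp23 and Timp1, and low in Timp3 (219 CPM). In cluster 2, led by immunoglobulin genes, all 9 genes were below their mean over the clusters.

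**Figure D4:**
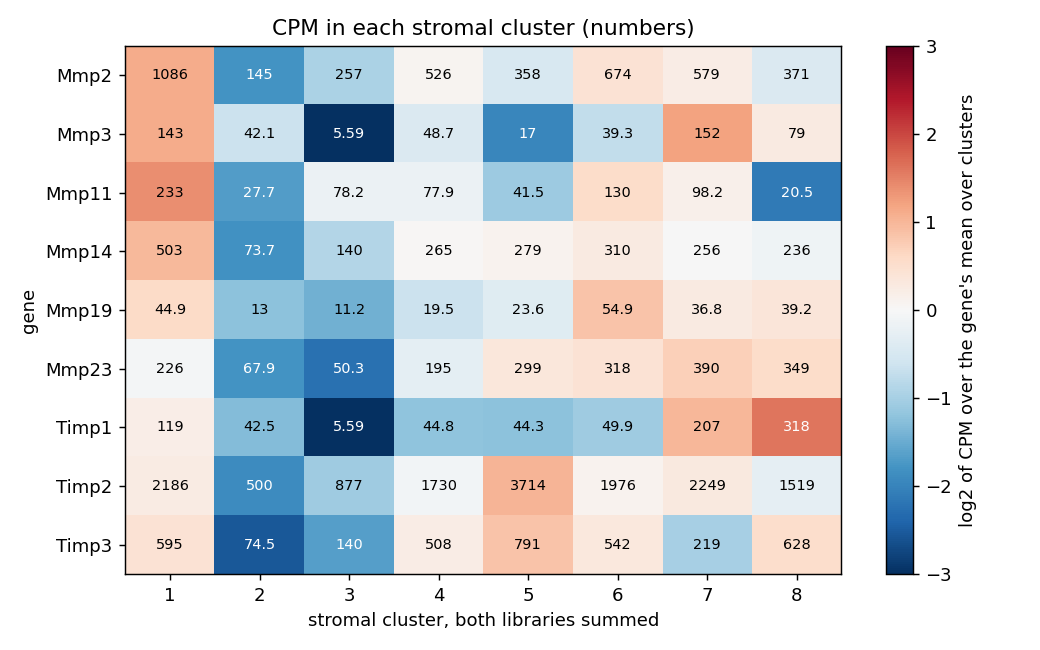
CPM of each gene in the 8 stromal clusters, both libraries summed, printed in each field, with colour for the log2 of that CPM over the gene's mean over clusters. Mmp2, Mmp11 and Mmp14 are highest in cluster 1 and Timp2 and Timp3 in cluster 5, and clusters 2, 3 and 4 are led by immune genes.

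Within each of the 4 largest clusters (1, 5, 6 and 7) the difference between the libraries was smaller for Mmp2, Mmp11 and Mmp14 than over all stromal cells. Cluster 1 gave a log2 ratio of 0.24 for Mmp2 (1119 and 948 CPM), 0.26 for Mmp11 (241 and 201 CPM) and 0.45 for Mmp14 (531 and 388 CPM). Across the 6 clusters with at least 30 cells of each library, Mmp2, Mmp11 and Mmp14 were higher in Tom+ in 6 of 6. Their intervals lay above 0 in 5, 4 and 5 of these, in the same order. Mmp2 in cluster 8 (0.03) and Mmp11 in cluster 7 (0.03) were below the median gene of the cluster, at 0.11 and 0.07. The medians over the 6 clusters were 0.36 for Mmp2, 0.44 for Mmp11 and 0.56 for Mmp14. These 6 include cluster 2, led by immunoglobulin genes, where the median gene was at -0.23. Cluster 2 gave the largest ratios for Mmp2 (0.69) and Mmp11 (1.53), the latter with 24 UMIs in Tom-. Cluster 8 held only 36 Tom+ cells, and there 1 cell per library decided the sign, since Mmp2 moved from 0.03 to -0.13 Mmp14 from 0.18 to -0.22 and Mmp3 from 0.44 to -0.61 when the top cell of each library was left out. In cluster 7, Mmp11 moved from 0.03 to -0.01 in the same way. With each of the 6 clusters weighted equally, the log2 ratio was 0.30 for Mmp2, 0.34 for Mmp11 and 0.49 for Mmp14, below the limit of 1.5-fold. The part of cluster makeup in these ratios was not tested.

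Timp1 and Mmp23 were lower in Tom+ in 6 of 6 clusters, each with an interval below 0. Cluster 2 was again among them, at -1.11 and -0.52, with the median gene at -0.23. For Timp1 the log2 ratios ran from -1.57 in cluster 1 (86.1 and 255 CPM) to -0.24 in cluster 5 (40.02 and 47.3 CPM), and with clusters weighted equally the ratio was -1.003, as over all stromal cells. Without the top cell of each library, the cluster 1 value was -1.14. For Mmp23 they ran from -0.60 in cluster 8 (245 and 373 CPM) to -0.18 in cluster 5 (277 and 314 CPM). Mmp3 was split, with log2 ratios of 1.16 in cluster 1 (160 and 71.4 CPM) and 1.06 in cluster 6 (62.3 and 30.0 CPM) but -0.26 (-0.40 to -0.12) in cluster 7 (131 and 157 CPM). Timp2 was higher in Tom+ in 5 and Timp3 in 4 of the 6 clusters, and both were lower in cluster 8, at -0.12 and -0.27.

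Within the Tom+ library, stromal cells with a tdTomato UMI were set beside those without one. Over all stromal cells, all 9 genes were lower in cells with the UMI, but so was the median gene, at -0.28, and cells of the immunoglobulin cluster were among them. Without the clusters led by immune genes, 761 cells with and 2306 cells without a UMI were compared, and the median gene was at -0.002. Mmp2 was then at 906 and 914 CPM, with log2 ratio -0.01 (-0.04 to 0.02), and Mmp14 at 449 and 469 CPM, -0.06 (-0.11 to -0.01). Timp1 was at 77.7 and 75.2 CPM, 0.05 (-0.07 to 0.16). Of the 9 log2 ratios, the lowest was -0.16 (Mmp19) and the highest 0.13 (Mmp3). All of these cells had been sorted for the fluorescent protein, so a cell without a tdTomato UMI is not a Tom- cell.

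Cells with at least 2 tdTomato UMIs (323) differed more from those with none. Mmp11 was at 138 and 186 CPM, with log2 ratio -0.43 (-0.55 to -0.32), Mmp3 at 85.3 and 115 CPM, -0.43 (-0.58 to -0.29), and Mmp14 at 405 and 469 CPM, -0.21 (-0.28 to -0.14). Timp1 was at 98.9 and 75.2 CPM, with log2 ratio 0.39 (0.25 to 0.54), and Mmp23 at 283 and 246 CPM, 0.20 (0.12 to 0.28). These cells were also spread differently over the clusters, with 35.3% in cluster 1 against 55.7% of the cells with none. Over all clusters not led by immune genes, Mmp2 was at 838 and 914 CPM, with log2 ratio -0.13 (-0.17 to -0.08). Within cluster 1, 114 cells with at least 2 UMIs had 1220 CPM of Mmp2 against 1108 CPM in 1285 cells with none. The log2 ratio there was 0.14 (0.08 to 0.20), and 0.09 (0.03 to 0.15) without the top Mmp2 cell of each side. Mmp2 was lower within cluster 6, at -0.15 (-0.26 to -0.04), and cluster 7, at -0.34 (-0.51 to -0.19). In cluster 5 it was at 0.03 (-0.14 to 0.20). Mmp3 had no single direction, with -0.45 (-0.65 to -0.25) in cluster 1 and -0.48 (-0.87 to -0.12) in cluster 7 but 0.40 (0.01 to 0.78) in cluster 6, and, for cells with at least 1 UMI, 1.09 (0.82 to 1.36) in cluster 6 and -0.95 (-1.30 to -0.61) in cluster 7. At 2 or more UMIs, the cluster 1 value of Mmp11 was -0.20 (-0.35 to -0.06), its cluster 7 value -1.11 (-1.71 to -0.56) and its cluster 6 value 0.01 (-0.23 to 0.24). Timp1 was higher within cluster 1, at 122 and 85.7 CPM, with log2 ratio 0.50 (0.30 to 0.70), and within cluster 7, at 0.48 (0.17 to 0.78), but lower within cluster 5, at -1.46 (-2.39 to -0.66). Single cells weighed on these values, since without the top Timp1 cell of each side the ratio was 0.30 (0.07 to 0.52) in cluster 1 and 0.21 (-0.14 to 0.54) in cluster 7.

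**Figure D5:**
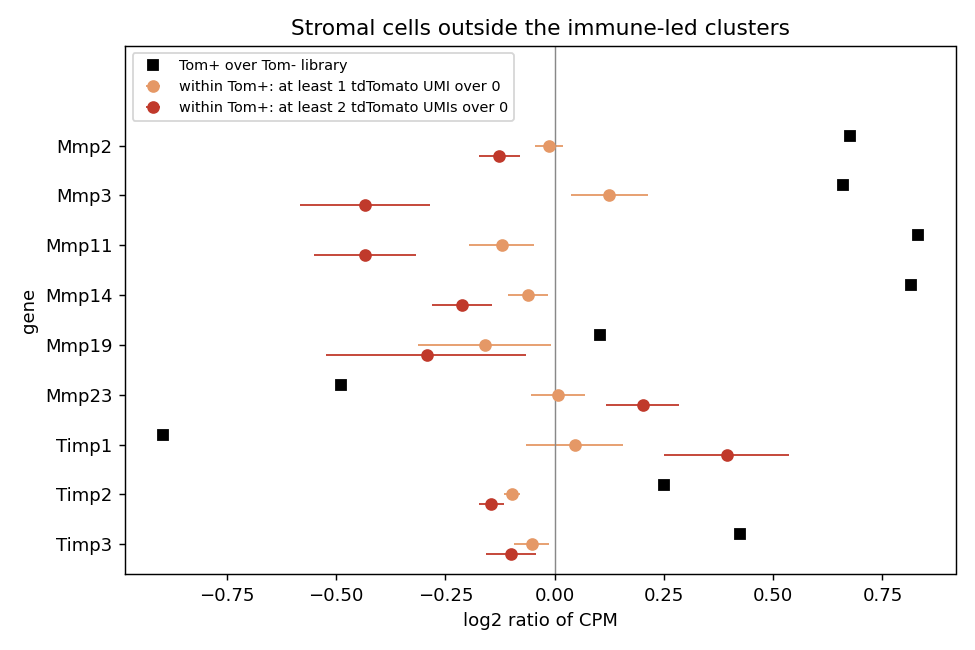
Log2 ratios of CPM in stromal cells outside the clusters led by immune genes, for the Tom+ over the Tom- library (black squares) and, within the Tom+ library, for cells with at least 1 (orange) or at least 2 (red) tdTomato UMIs over cells with 0, the latter with 95% intervals of counting error. The Tom+ cells enter both kinds of comparison, and Timp1 lies at -0.90 in the first and at 0.39 in the last.

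The symbols of 17 other Mmp or Timp genes were in the tables, and 14 of them were under 5 CPM in each of the 4 sums, 3 with no UMI. Mmp9, the gelatinase of leukocytes, was at 12.6 CPM in Tom+ mesothelial cells, but 97.0% of its 67 UMIs were in 10 cells. Mmp12, the macrophage elastase, had 488 UMIs in Tom+ stromal cells, 421 of them in 1 cell and 430 in the clusters led by immune genes. Mmp27 was spread thinly over stromal cells, with 315 UMIs in 265 Tom+ and 282 UMIs in 256 Tom- cells. Timp4, the remaining inhibitor, named after its values were seen, was at 0.61 and 0.83 CPM in stromal cells.

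Of 18 genes that activate or control metalloproteinases, 14 passed the filter in the stromal library comparison, and 0 were higher and 1 was lower by at least 1.5-fold, beside 3.86% and 3.25% of all genes. The exception was Plaur, the urokinase receptor, at 13.2 CPM in Tom+ against 22.7 CPM in Tom- stromal cells, with log2 ratio -0.79 (-0.92 to -0.65). In mesothelial cells Plaur was at 264 and 332 CPM. The mesothelial markers Wt1 (-0.63), Rspo1 (-0.51) and Nkain4 (-0.85) were also lower in Tom+ stromal cells, as were Gpm6a and Bnc1, which did not pass the filter. Of these, Wt1 was widespread in stromal cells, found in 68.4% of Tom+ and 75.8% of Tom- cells. The part of carried-over mesothelial RNA in the stromal Plaur values was not tested. The regulators named next were chosen after their values were seen. Reck, a membrane-anchored inhibitor of Mmp2 and Mmp14, was at 39.9 and 31.9 CPM, with log2 ratio 0.32 (0.23 to 0.42). Between the classes the urokinase system was divided, since Plaur was higher in mesothelial cells at log2 ratios of 4.33 and 3.87, while its ligand Plau was lower at -3.19 and -3.25. Bsg (Emmprin), a membrane protein known to induce metalloproteinases in neighbouring fibroblasts, was at 959 and 1022 CPM in mesothelial and 411 and 507 CPM in stromal cells.

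Over 12 sums of cluster and library, the genes with the pattern most like each member were sought among 5769 genes with at least 20 CPM. Mmp2 was followed most closely by Pdgfrb (Pearson r 0.98), Plod1 (0.97) and Psap (0.97), Mmp14 by Brd1, Col5a1 and Runx1t1 (each 0.99 or 0.98), and Mmp11 by Ggt5, Col5a3 and Adamts12 (each 0.96). Among the collagen-related genes, Col5a1 and Col5a3 encode type V collagen chains and Plod1 a collagen lysyl hydroxylase. Mmp3 had the weakest partners, Creg1 (0.87), Mdk (0.85) and Cpz (0.83), and Timp1 had Bgn (0.91), Sod2 (0.90) and Vmp1 (0.88). Mmp19 was followed by Spns1, Mbnl2 and Rasal2 (0.96), Mmp23 by Selenom (0.99), Dram1 and Ctsl (0.98), Timp2 by Ahnak, Epb41l2 and Vwa5a (0.98), and Timp3 by Tnfaip1, Rab11a and Atp6v1f (0.98). Between members, r was 0.95 for Mmp2 with Mmp14, 0.85 for Timp3 with Mmp14, 0.84 for Timp2 with Timp3 and 0.04 for Timp1 with Timp2. The sums share libraries, and both sums of the immunoglobulin cluster are among the 12 points. Mmp2, Mmp14, Timp2 and Timp3 were at their lowest in that cluster, whereas Mmp3 (42.1 CPM) was above its level in cluster 5 (17.0 CPM). The r values are therefore descriptions.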

How the data were processed

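Cells of gonadal adipose tissue were captured with the 10x Genomics 3′ chemistry, 1 library for Tom+ and 1 for Tom- cells. The authors deposited raw UMI counts per gene and barcode, made with Cell Ranger 3.0.2 on mm10 per the submitters' processing notes. The tables listed 61119807 UMIs in 5566 Tom+ barcodes and 96872394 UMIs in 11838 Tom- barcodes, and depth limits the precision of rare genes. Counts were summed per library and cell class and scaled to CPM, with exact Poisson intervals for levels, exact conditional intervals for ratios and Clopper-Pearson intervals for shares, at 95%. Such intervals cover counting error only. With 1 library per group no test could be made, and genes whose mean reached 5 CPM were called at 1.5-fold between libraries and 2-fold between classes. For shares, cells were thinned to 7563 UMIs with seed 0, the 10th percentile of depth. Stromal cells were clustered with scanpy 1.11.5 and leidenalg 0.10.2 (2000 variable genes without Mmp and Timp genes, 30 principal components, 20 neighbours, resolution 0.3), with no correction between libraries. Clusters with at least 40 CPM of Ptprc were called immune-led, after they had been seen. No doublet caller was run, and an alternative left out mesothelial cells with 3 or more Pdgfra UMIs. Scripts were tested on simulated data. The genes described and all lists were chosen with earlier results of these data known. Named genes were the 9 genes, other Mmp or Timp genes averaging 5 CPM or more in a class, regulators past 1.5-fold between the libraries in stromal cells, and for each gene the 3 genes with the highest Pearson correlation over the cluster and library sums. Reck, Plau, Bsg and Timp4 are named outside this rule, chosen after their values were seen.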

Additional observations from a re-analysis of the deposited data

Results flagged for a closer look

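For 4 of the members a ratio took opposite signs in 2 settings, each with an interval off 0. The differences were not tested because each group was 1 library. The log2 ratio of Tom+ over Tom- was 0.60 in stromal and -1.71 in mesothelial cells for Mmp3, a difference of 2.31, with only 10 Mmp3 UMIs in Tom+ mesothelial cells. For Mmp11 it was 0.73 and -0.64, a difference of 1.37, although its mesothelial value was 0.0347 with no quality filter. These signs were not particular to Mmp3 and Mmp11. Of the stromal benchmark genes, Lum was at 0.16 in stromal and -1.03 in mesothelial cells, and Pdgfra at 0.29 and -0.29. Col1a1 and Col3a1 took the same signs, Pi16 the reverse, and Dcn, Clec3b and Mfap5 were below 0 in both classes. The log2 ratio of mesothelial over stromal cells was 0.40 in Tom+ and -0.13 in Tom- for Mmp23, a difference of 0.53, and 0.65 and -0.28 for Timp1, a difference of 0.93, where the Tom+ value was 0.0042 with no quality filter.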

How the results depend on the processing

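No paired analysis was possible because each group was 1 library. Of 306 log2 ratios of the 9 genes under alternatives, 184 moved by no more than their counting interval. Another 121 moved further with any called direction kept, and 1 called direction reversed, since Mmp11 in mesothelial cells was 0.0347 with no quality filter. The sign, called or not, changed in 14 of the ratios. These were Mmp19 (3) between the libraries in stromal cells, Timp1 (3), Mmp19 (2), Mmp2 (1) and Mmp11 (1) in mesothelial cells, and Timp2 (4) between the classes in Tom+. The number of genes higher in Tom+ stromal cells was 0 with each cluster weighted equally, and the number lower was 2 with median-of-ratios scaling, where Mmp23 joined Timp1. In mesothelial cells the number lower was 0 with each cell weighted equally, with no quality filter and without cells of 3 or more Pdgfra UMIs. The number with a log2 ratio above 0, of any size, in cells with a tdTomato UMI was 3 without the immune-led clusters, an alternative chosen after seeing the data, and 0 otherwise. These were Mmp3 (0.13), Timp1 (0.05) and Mmp23 (0.01), the last 2 with intervals that span 0. Mmp3 in stromal cells fell below 1.5-fold with median-of-ratios scaling (0.52), each cell weighted equally (0.52), no quality filter (0.33), shared barcodes left out (0.54) and clusters weighted equally (0.50). Timp1 ran from -1.11 without shared barcodes to -0.78 with no quality filter. Leaving out the top cell of each library, within clusters or by tdTomato, was also chosen after seeing the data. The causes of these changes were not tested.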
